A study of Mus musculus with 12 samples.

Results

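The mitochondrial genome of the mouse encodes a small set of protein subunits of the respiratory chain. Of these genes 10 are described here, namely mt-Nd1, mt-Nd2, mt-Nd4, mt-Nd5, mt-Nd6, mt-Cytb, mt-Co1, mt-Co2, mt-Co3 and mt-Atp6. They were chosen by gene symbol, matched through mouse Ensembl gene identifiers, and all 10 were found among the 21899 genes of the deposited table. The other 3 protein-coding genes of the mitochondrial genome, mt-Nd3, mt-Nd4l and mt-Atp8, are given for comparison, and mitochondrial ribosomal and transfer RNAs were not analysed here. Each gene was examined as FPKM, which scales fragments by gene length and by all counted fragments of the library, and as its percent of the summed FPKM of the 10 genes in the same library, a quantity in which the ratio of mitochondrial to nuclear RNA cancels.

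Polyadenylated RNA of whole kidney was sequenced in 4 groups of 3 libraries. The libraries labelled db/db-GABP-KD came from diabetic db/db mice in which GABP was to be knocked down, and the db/db-veh libraries from db/db mice given vehicle. The db/m-GABP-OE libraries came from db/m mice in which GABP was to be overexpressed, and the db/m-veh libraries from db/m mice given vehicle. The db/db genotype abolishes signalling of the leptin receptor and leads to obesity and diabetes, whereas heterozygous db/m littermates stay lean. The sources used here name neither the vehicle, nor the age and sex of the mice, nor the means by which GABP was raised or lowered. Each group drew on kidneys of 6 mice, with 3 tissues combined per extraction, so the 3 libraries of a group may share animals or a pool. The p-values therefore measure only the spread between these libraries.

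The respiratory chain passes electrons through complexes I, III and IV, and the proton gradient that they build drives ATP synthase. Most subunits are encoded in the nucleus and imported, while the mitochondrial genome supplies core membrane subunits of each of these complexes. Both strands of the mitochondrial genome are transcribed as long precursors. These are cut mostly at transfer RNAs, and most of the messenger RNAs are polyadenylated. The reabsorbing tubule cells of the kidney are rich in mitochondria. GABP, also known as nuclear respiratory factor 2, is a nuclear transcription factor that binds promoters of many nuclear genes for respiratory subunits and for the mitochondrial transcription machinery, so the mitochondrial genes lie downstream of it only indirectly.

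Sequence matters for how these genes are counted, because stretches of the mitochondrial genome have been copied into nuclear chromosomes. A fragment from a stretch that is identical in both places cannot be assigned to either by its sequence. For mt-Co2 and mt-Atp6 the first 60 bases are shown with the same stretch of the annotated nuclear copy, and each pair is identical. For mt-Co1, mt-Nd6 and mt-Cytb a like window, which begins at the second base of mt-Cytb and at the first base of the others, is shown with the copy that covers most of the gene, and the differing bases are in capitals. The sequences are those of GENCODE M21 transcripts (GRCm38), written 5′ to 3′ along each gene. The windows are chrM:7013-7072 (plus strand) against chr1:24615506-24615565 (minus strand) for mt-Co2, chrM:7927-7986 (plus) against chr1:24614592-24614651 (minus) for mt-Atp6, chrM:5328-5387 (plus) against chr2:22589588-22589647 (minus) for mt-Co1, chrM:14011-14070 (minus) against chr4:80003855-80003914 (minus) for mt-Nd6, and chrM:14146-14205 (plus) against chr4:80003990-80004049 (plus) for mt-Cytb.
mt-Co2: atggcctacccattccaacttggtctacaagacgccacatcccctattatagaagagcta
Gm28661: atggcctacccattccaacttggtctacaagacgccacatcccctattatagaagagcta
mt-Atp6: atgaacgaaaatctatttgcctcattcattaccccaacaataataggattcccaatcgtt
Gm10925: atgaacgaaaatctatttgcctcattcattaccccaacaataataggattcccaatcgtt
mt-Co1: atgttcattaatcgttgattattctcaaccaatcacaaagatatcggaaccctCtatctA
Gm13340: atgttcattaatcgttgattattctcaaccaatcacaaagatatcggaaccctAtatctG
mt-Nd6: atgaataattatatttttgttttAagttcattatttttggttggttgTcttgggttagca
Gm11408: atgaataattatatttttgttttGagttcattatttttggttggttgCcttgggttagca
mt-Cytb: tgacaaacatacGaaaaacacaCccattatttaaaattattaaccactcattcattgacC
Gm11410: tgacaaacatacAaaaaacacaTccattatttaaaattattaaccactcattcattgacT

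Over their whole length, mt-Co2, mt-Atp6 and mt-Co3 each had a nuclear copy on chromosome 1 that was 100% identical, over 681 of 684 bases for mt-Co2 (Gm28661), 678 of 681 for mt-Atp6 (Gm10925) and 783 of 784 for mt-Co3 (Gm28437). The same stretch of chromosome 1 (GRCm38, 24611535 to 24616197, minus strand) held a 100% identical copy of 876 of the 1378 bases of mt-Nd4 (Gm28439) and a copy of the last 483 bases of mt-Co1 at 99.8% identity (Gm29216). Copies at lower identity that span nearly the whole gene were Gm13340 on chromosome 2 for the whole of mt-Co1 (97.6%), Gm11408 on chromosome 4 for mt-Nd6 (93.6%) and Gm11410 on chromosome 4 for mt-Cytb (92.9%), beside Gm13341 for mt-Co2 (95.9%). Partial copies were Gm13339 for 510 bases of mt-Nd2 (96.7%), Gm4076 and Gm11407 for 954 and 1055 bases of mt-Nd5 (95.2% and 92.4%), Gm11512 for 654 bases of mt-Co1 (90.7%), and Gm43743 and AC124578.3 for 116 and 184 bases of mt-Atp6 (94.8% and 94.0%). None of the copies found is a gene of the deposited table.

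Gene boundaries also bear on the counts. mt-Nd5 and mt-Nd6 lie on opposite strands and share their last 14 bases (chrM:13552-13565), shown in capitals in the last 30 bases of each gene, chrM:13536-13565 on the plus strand for mt-Nd5 and chrM:13552-13581 on the minus strand for mt-Nd6.
mt-Nd5: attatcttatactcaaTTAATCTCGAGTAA
mt-Nd6: tttattattatcgagaTTACTCGAGATTAA
Among the 10 genes mt-Nd6 is the only one on the minus strand, and with the strand setting of the counting not given, its reads cannot be told apart from antisense reads of the plus-strand transcript. mt-Nd4, mt-Cytb and mt-Co3 end 1 base past their last whole codon. That base is a T, in capitals in the last 30 bases (chrM:11515-11544, chrM:15259-15288 and chrM:9361-9390, plus strand), and it is known that the added poly(A) tail completes such a stop codon.
mt-Nd4: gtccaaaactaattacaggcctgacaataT
mt-Cytb: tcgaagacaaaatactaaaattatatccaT
mt-Co3: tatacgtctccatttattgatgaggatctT

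The libraries held 6.78 to 9.70 M counted fragments (M, 1e+06). Kidney identity was checked with marker genes: each of the 5 kidney epithelium and 12 proximal tubule markers was detected, while 3 of the 4 adrenal markers were at 0 in every library. The summed FPKM of 7 heart and skeletal muscle markers was 0.0922 to 1.32 over the 12 libraries. That of 5 liver markers was 16.6 to 148, and what the liver sum reflects was not tested. Gabpa, the DNA-binding subunit of GABP, was at 6.62, 2.66 and 3.40 FPKM in the libraries labelled db/db-GABP-KD 1 to 3, against 2.20, 2.17 and 1.63 in db/db-veh. The label was thus not matched by a lower transcript level (limma log2 fold change 0.84, SE 0.33, adjusted p = 0.34), and directions drawn from these libraries rest on the label alone. The median of all genes was 0.42 there, and Gabpa had 0.31 on scaling by nuclear genes (median of ratios, SE 0.26, limma adjusted p = 0.90). In db/m-GABP-OE Gabpa was at 3.45, 3.35 and 3.71 FPKM, against 1.79, 2.32 and 2.54 in db/m-veh, a change of 0.57 on the log2 scale (SE 0.33, limma adjusted p = 0.43). The median of all genes was 0.38 in that comparison, and Gabpa had 0.19 on scaling by nuclear genes (SE 0.26, limma adjusted p = 0.999). A higher transcript level was thus not called for that label either. Its partner subunits Gabpb1 and Gabpb2 were not called in any of the 3 comparisons (limma adjusted p of 0.37 to 0.98).

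The 10 genes supplied most of the counted fragments in 11 of the 12 libraries. They took 47.9%, 75.5% and 74.1% of fragments in the libraries labelled db/db-GABP-KD 1 to 3, and 75.4%, 85.9% and 75.1% in db/db-veh. The share was 64.1%, 59.9% and 58.6% in db/m-GABP-OE and 67.8%, 77.8% and 69.7% in db/m-veh. Counting error was at most 0.0337 percentage points on each share (half-width of the 95% Wilson interval, which covers counting error only). The first library labelled db/db-GABP-KD was the lowest of the 12 and the second db/db-veh library the highest.

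By group the share averaged 65.8% ± 15.5 in the libraries labelled db/db-GABP-KD and 78.8% ± 6.19 in those of db/db-veh (SD, n = 3 each). It averaged 60.9% ± 2.91 over the db/m-GABP-OE libraries and 71.8% ± 5.28 over those of db/m-veh (SD, n = 3 each). The difference of means was 7.01 percentage points for db/db-veh relative to db/m-veh, with overlapping libraries. It was -10.9 points for db/m-GABP-OE relative to its vehicle group, and the 3 db/m-GABP-OE libraries lay below the 3 db/m-veh libraries. For the libraries labelled db/db-GABP-KD the difference was -12.95 points relative to db/db-veh, with overlapping libraries, and -3.99 points without the first of them. In whole tissue, fewer cells of a mitochondria-rich type and less mitochondrial RNA per cell cannot be told apart. The summed FPKM of 5 of 14 marker lists lay higher in db/m-GABP-OE than in db/m-veh without overlap. For 6 macrophage markers the sum was 115 to 211 in db/m-GABP-OE and 25.2 to 29.7 in db/m-veh. For 7 endothelial markers it was 143 to 209 in db/m-GABP-OE and 80.4 to 102 in db/m-veh, and for 6 markers of the thick ascending limb 190 to 213 in db/m-GABP-OE and 95.7 to 119 in db/m-veh. The adipocyte sum was 18.2 to 30.4 in db/m-GABP-OE and 4.16 to 11.7 in db/m-veh, and the brown adipocyte sum, with Elovl3 under 0.3 FPKM in every library, 3.77 to 4.93 in db/m-GABP-OE and 0 to 0.947 in db/m-veh. The sums of the other 9 lists, proximal tubule among them, overlapped. In the libraries labelled db/db-GABP-KD the podocyte sum (14.1 to 36.8, against 4.93 to 12.3 in db/db-veh) and the endothelial sum (73.5 to 120, against 34.9 to 68.2 in db/db-veh) were higher without overlap. These sums depend on the share, because FPKM divides by the library total. The median log2 fold change of all genes was 0.38 for db/m-GABP-OE and 0.42 for the libraries labelled db/db-GABP-KD. Scaling by nuclear genes (median of ratios) brought the endothelial median from 0.50 to 0.08 and from 0.37 to -0.14 in that order. The thick ascending limb median for db/m-GABP-OE went from 0.59 to 0.16. The podocyte median for the libraries labelled db/db-GABP-KD went from 1.03 to 0.49. Medians on that scaling are not given here for the macrophage, adipocyte and brown adipocyte lists. The size factors by which it divides were 1.26 to 1.33 in db/m-GABP-OE and 0.824 to 1.08 in db/m-veh. The macrophage sums of these groups differed by more than that. The part of these markers in the share was not tested.

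**Figure D1:**
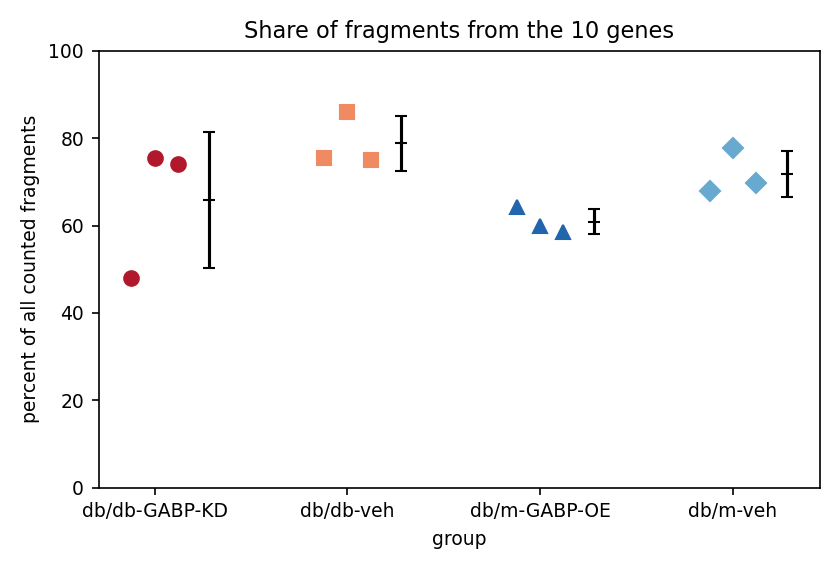
Percent of all counted fragments that came from the 10 genes, by library (points) in the 4 groups, with the group mean and SD (n = 3) beside them. The first library labelled db/db-GABP-KD stands alone at 47.9%, and the 3 db/m-GABP-OE libraries, at 58.6% to 64.1%, sit below the 3 db/m-veh libraries, at 67.8% to 77.8%.

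Between genes the levels spanned more than 100-fold. By median FPKM over the 12 libraries the order was mt-Co1 (178306), mt-Cytb (110032), mt-Nd1 (87895), mt-Nd2 (73884), mt-Nd4 (47284), mt-Nd5 (35368), mt-Nd6 (16505), mt-Co2 (2893), mt-Co3 (1908) and mt-Atp6 (1258). The first 7 held ranks 1 to 7 of all genes in the table by median FPKM, and mt-Co2, mt-Co3 and mt-Atp6 held ranks 9, 10 and 12. Neighbours in the order were separated in 12 of 12 libraries for mt-Co1 over mt-Cytb, mt-Cytb over mt-Nd1, mt-Nd2 over mt-Nd4, mt-Nd5 over mt-Nd6 and mt-Nd6 over mt-Co2. The order broke in at least 1 library for mt-Nd1 over mt-Nd2 (10 of 12), mt-Nd4 over mt-Nd5 (11 of 12), mt-Co2 over mt-Co3 (10 of 12) and mt-Co3 over mt-Atp6 (10 of 12), so these neighbours are not separated beyond their spread. The widest step was between mt-Nd6 and mt-Co2, where the ratio of FPKM ranged from 3.44 to 9.08 over the libraries.

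**Figure D2:**
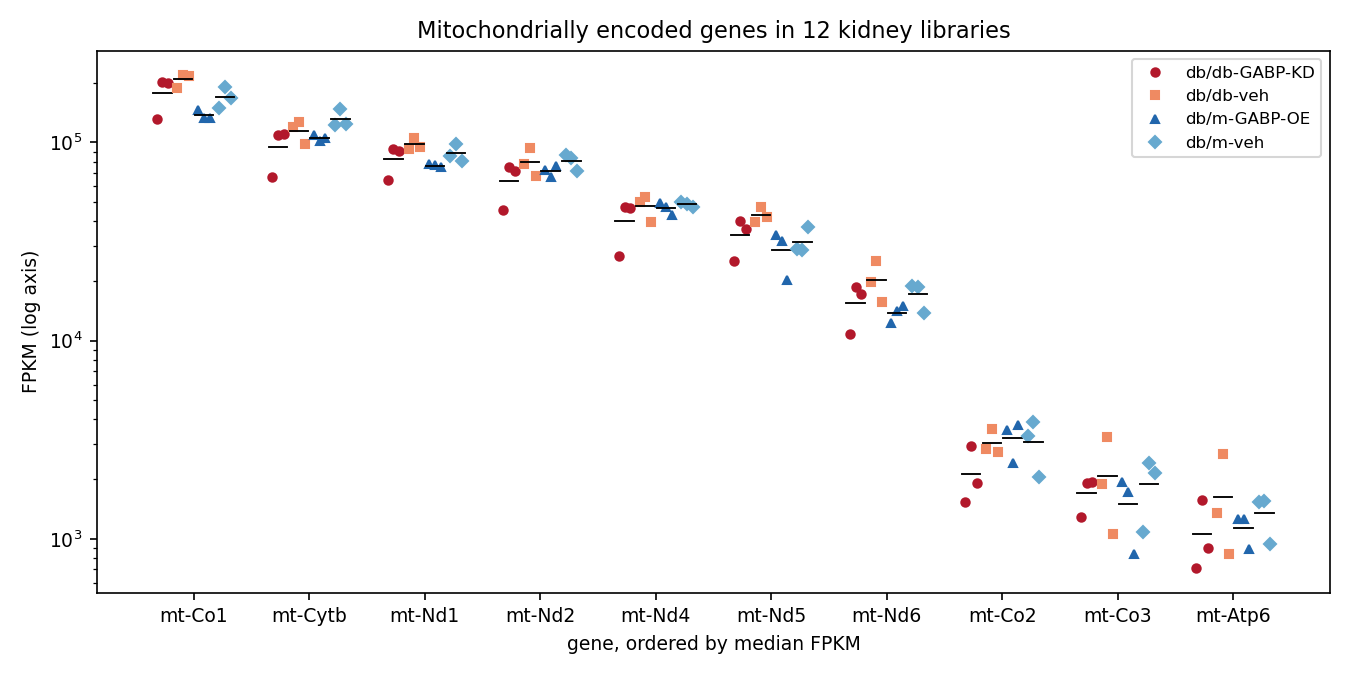
FPKM (log axis) of each of the 10 genes in the 12 libraries, in order of median FPKM, with a bar at each group's mean. The first 7 genes lie between 10770 and 218045 FPKM and the last 3 between 711 and 3882, and for 8 of the 10 genes the lowest library is the first one labelled db/db-GABP-KD.

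The genes below the step were those with a full-length identical nuclear copy. Of the 100-base windows along each gene, 99.5% of mt-Co2, 99.9% of mt-Co3 and 99.5% of mt-Atp6 occurred unchanged in an annotated nuclear copy, against 60.8% of mt-Nd4, 30.8% of mt-Co1, 3.19% of mt-Nd2 and 0% of mt-Nd1, mt-Nd5, mt-Nd6 and mt-Cytb. mt-Nd3 (97.6%) and mt-Nd4l (98.5%) were lower still, at 35.2 to 268 FPKM for mt-Nd3 and 12.5 to 52.2 FPKM for mt-Nd4l. mt-Atp8, a short gene of 204 bases, was listed at 0 in 3 of 12 libraries and had 31.4 FPKM at most. Of its windows 0% occurred in an annotated copy, but unannotated nuclear sequence was not searched. mt-Atp8 lies between mt-Co2 and mt-Atp6, whose chromosome 1 copies start at 24614885 (Gm28661) and end at 24614651 (Gm10925). The stretch between these copies was not searched, so the 0% does not show that mt-Atp8 lacks a nuclear copy. Its last 43 bases are the first 43 of mt-Atp6, which Gm10925 holds unchanged. The read length and the treatment of reads with several matches are not named in the labels, and the part of the copies in these levels was not tested. Levels of mt-Co2, mt-Co3, mt-Atp6, mt-Nd4 and mt-Co1 relative to the other genes are uncertain for that reason. For mt-Co1, 51.1% of the 50-base windows occurred in such a copy.

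**Figure D3:**
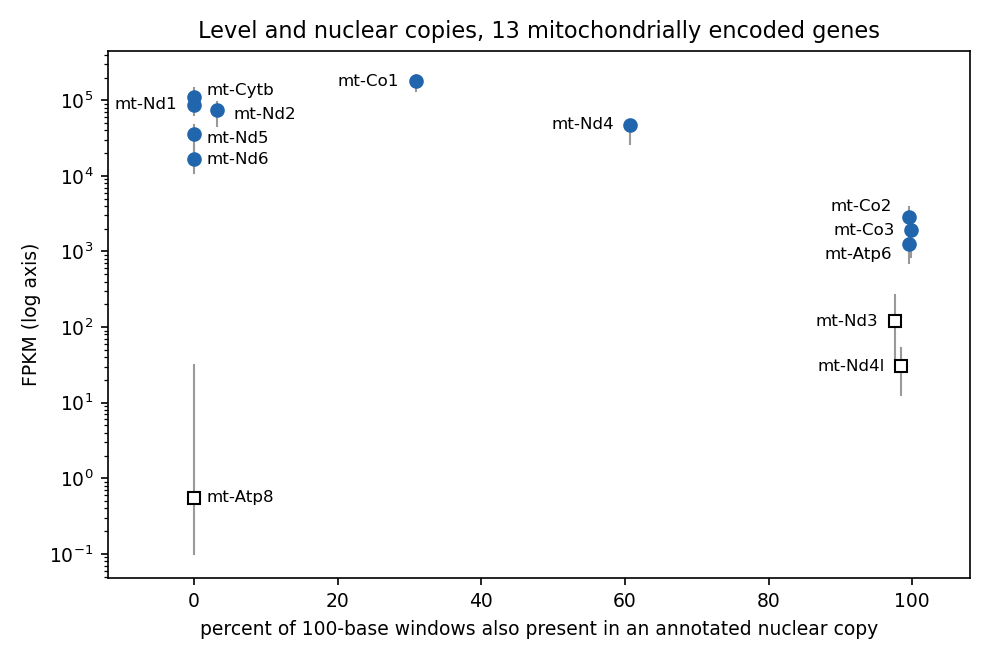
Median FPKM (points, log axis) and range over 12 libraries (lines) of the 13 mitochondrially encoded protein-coding genes against the percent of their 100-base windows present in an annotated nuclear copy. Filled circles are the 10 genes described and open squares the other 3, and the line of mt-Atp8, listed at 0 in 3 libraries, is drawn to 0.1. mt-Co2, mt-Co3 and mt-Atp6 lie at 99.5% to 99.9% and at 3882 FPKM or less. mt-Atp8 is low with 0% of its windows in an annotated copy, but the stretch between the chromosome 1 copies of its neighbours was not searched.

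Complex I, the NADH dehydrogenase, was represented by mt-Nd1, mt-Nd2, mt-Nd4, mt-Nd5 and mt-Nd6, subunits of its membrane arm that take part in ubiquinone reduction and proton pumping. Together they made up 46.0% ± 0.554 of the summed FPKM of the 10 genes in the libraries labelled db/db-GABP-KD and 46.6% ± 1.59 in those of db/db-veh, and 48.9% ± 0.729 over db/m-GABP-OE libraries and 46.6% ± 2.43 over db/m-veh libraries (SD, n = 3 each). mt-Nd1 (chrM:2751-3707, plus strand) was the steadiest of the 10 as a share, at 14.7% to 17.3% in the 12 libraries. Its level was 64676, 92594 and 90393 FPKM in the libraries labelled db/db-GABP-KD, and 92416, 105901 and 94880 in those of db/db-veh. It was 77671, 76627 and 74877 FPKM in the db/m-GABP-OE libraries, and 85397, 98236 and 80688 in db/m-veh. The 3 db/m-GABP-OE values lay below the 3 of db/m-veh, and the other comparisons overlapped. mt-Nd2 ranged from 45819 to 93852 FPKM and mt-Nd4 from 26765 to 52894, and the groups overlapped in each comparison for both.

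mt-Nd5 was at 25341, 40087 and 36568 FPKM in the libraries labelled db/db-GABP-KD, and at 39739, 47449 and 41831 in db/db-veh. It was at 34168, 31851 and 20314 FPKM in db/m-GABP-OE, and at 28923, 28647 and 37344 in db/m-veh. The db/db-veh values were thus above all 3 of db/m-veh, with means of 43006 ± 3987 and 31638 ± 4944 FPKM (SD, n = 3 each), the one gene of the 10 with that separation. The log2 fold change was 0.45 (95% interval -0.15 to 1.05, limma adjusted p = 0.57), and the exact permutation p was 0.1, the lowest possible with 3 libraries on each side. mt-Nd6, the minus-strand gene, ranged from 10770 to 25277 FPKM. Whether selection of polyadenylated RNA captured it as well as the other genes was not tested. Relative to mt-Nd5, its neighbour on the other strand, mt-Nd6 stood at 0.425 to 0.472 in the libraries labelled db/db-GABP-KD and 0.376 to 0.533 in db/db-veh. The ratio was 0.357 to 0.738 in db/m-GABP-OE and 0.371 to 0.654 in db/m-veh, and no difference between the 4 groups was detected (exact permutation p = 0.778).

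Complex III, which hands electrons from ubiquinol to cytochrome c, has a single mitochondrially encoded subunit, the cytochrome b of mt-Cytb (chrM:14145-15288, plus strand). Its level was 66746, 108864 and 110596 FPKM in the libraries labelled db/db-GABP-KD, and 120081, 126134 and 97703 in db/db-veh. It was 109467, 102133 and 105158 FPKM in db/m-GABP-OE, and 121921, 147406 and 123734 in db/m-veh. The db/m-GABP-OE values lay below those of db/m-veh, with means of 105586 ± 3686 and 131020 ± 14220 FPKM (SD, n = 3 each). The log2 fold change was -0.31 (95% interval -0.81 to 0.20, limma adjusted p = 0.54).

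Complex IV, cytochrome c oxidase, has its catalytic subunit from mt-Co1 and neighbouring core subunits from mt-Co2, which receives electrons from cytochrome c, and mt-Co3. mt-Co1 (chrM:5328-6872, plus strand) was at 130750, 201462 and 200733 FPKM in the libraries labelled db/db-GABP-KD, and at 188445, 218045 and 217193 in db/db-veh. It was at 145608, 132401 and 133404 FPKM in db/m-GABP-OE, and at 149682, 189788 and 168167 in db/m-veh. The db/m-GABP-OE values again lay below those of db/m-veh, with a log2 fold change of -0.30 (95% interval -0.76 to 0.17, limma adjusted p = 0.52). mt-Co2 ranged from 1536 to 3882 FPKM and overlapped in each comparison. mt-Co3 varied most between libraries, 3.88-fold from 836 FPKM in the third db/m-GABP-OE library to 3248 in the second db/db-veh library.

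ATP synthase receives subunit a, part of its proton channel, from mt-Atp6 (chrM:7927-8607, plus strand). It was at 711, 1573 and 896 FPKM in the libraries labelled db/db-GABP-KD, and at 1348, 2679 and 841 in db/db-veh. It was at 1264, 1252 and 886 FPKM in db/m-GABP-OE, and at 1535, 1555 and 936 in db/m-veh. The groups overlapped in each comparison, and the spread within db/db-veh alone was wider than the difference between group means in any of them. mt-Co2, mt-Co3 and mt-Atp6, which have the identical copies, had 4087 to 22000 fragments per library, so counting error was small beside that spread.

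In db/db-veh compared with db/m-veh, the comparison of diabetic with lean kidneys, limma called 0 of the 10 genes (adjusted p under 0.05), with 0.093% of all 12897 genes tested called. None had an unadjusted p under 0.05, and voom on recovered fragments also called 0. The log2 fold changes ran from -0.20 (mt-Cytb) to 0.45 (mt-Nd5), with a median of 0.11 beside -0.24 for all genes tested. As deposited 7 of 10 were above 0, whereas on a scaling by nuclear genes (median of ratios, with the mitochondrial genes left out of the size factors) they ran from 0.19 to 0.84 and 10 of 10 were above 0. The median of all genes was then 0.01, and 0 of 10 were called (background 0.171%). FPKM values of mt-Nd5 did not overlap between the groups, 1 of 10 genes higher in that way beside 1.46% of all genes.

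In db/m-GABP-OE kidneys compared with those of db/m-veh limma called 0 of 10, beside 1.9% of all genes, with 0 at an unadjusted p under 0.05 and 0 by voom. The log2 fold changes ran from -0.33 (mt-Co3) to 0.10 (mt-Co2), with a median of -0.21 beside 0.38 for all genes. After scaling on nuclear genes they ran from -0.78 to -0.35, with 10 of 10 below 0, a median of all genes of 0.04 and 0 of 10 called (background 0.209%). The FPKM of mt-Nd1, mt-Cytb and mt-Co1 lay below db/m-veh without overlap, 3 of 10 beside 0.923% of all genes. These 3 genes share the total of the library that FPKM divides by, so they are not independent of each other or of the lower fragment share of db/m-GABP-OE.

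In the libraries labelled db/db-GABP-KD compared with db/db-veh limma called 0 of 10, beside 0% of all genes, with 0 at an unadjusted p under 0.05 and 0 by voom. The log2 fold changes ran from -0.57 (mt-Co2) to -0.15 (mt-Co3), with a median of -0.31 beside 0.42 for all genes. Without the first library labelled db/db-GABP-KD they ran from -0.36 (mt-Co2) to 0.042 (mt-Co3), with a median of -0.098, and mt-Co1 had -0.045 in place of -0.25. The FPKM of the libraries overlapped for 10 of 10, where 0.822% of all genes were lower without overlap. After scaling on nuclear genes the log2 fold changes ran from -1.18 to -0.76, with 0 of 10 called (background 0.0388%). On that scaling mt-Co2 had an unadjusted limma p of 0.041 (adjusted 0.75), 1 of 10 genes under 0.05 beside 6.5% of all genes. The difference of the GABP-OE effect and that of the libraries labelled db/db-GABP-KD was called for 0 of 10 genes by limma or voom, beside 0.132% of all genes as deposited and 0.0775% on nuclear scaling. It was at an unadjusted p under 0.05 for 0 of 10, beside 5.44% and 6.85% of all genes by limma. For mt-Cytb the GABP-OE effect minus that of the libraries labelled db/db-GABP-KD was -0.01 on the log2 scale (95% interval -0.73 to 0.70), which leaves room for sizeable differences.

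**Figure D4:**
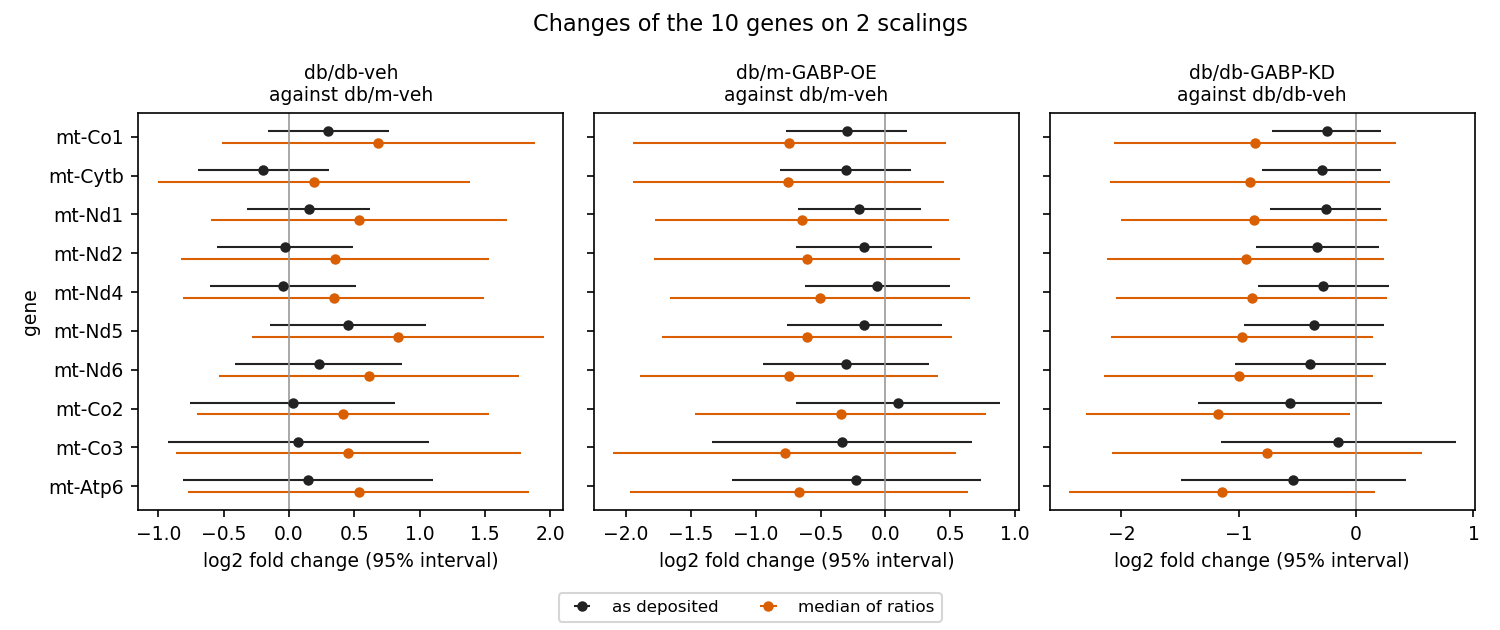
Log2 fold changes of the 10 genes with 95% intervals in the 3 comparisons, as deposited (black) and after scaling by median of ratios on nuclear genes (orange). Scaling on nuclear genes moves the 10 values up in db/db-veh against db/m-veh and down in the other comparisons, and widens the intervals, of which 1 excludes 0, that of mt-Co2 in the libraries labelled db/db-GABP-KD (-2.30 to -0.06).

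As shares of the summed FPKM of the 10 genes, mt-Cytb was lower and mt-Co1 higher in the db/db libraries than in the db/m libraries. Shares of a library add up to a fixed total, so a higher share of mt-Co1, the largest, lowers those of other genes. Over the 12 libraries the log2 shares of mt-Cytb and mt-Co1 had Pearson r = -0.85, and their log2 FPKM r = 0.46. For mt-Nd4 and mt-Co1 these were -0.89 and 0.38. mt-Cytb held 17.8%, 18.4% and 19.1% in the libraries labelled db/db-GABP-KD, and 20.2%, 18.6% and 16.9% in db/db-veh. It held 21.6%, 21.4% and 22.2% in db/m-GABP-OE, and 22.3%, 23.6% and 22.6% in db/m-veh. The values of both db/db groups lay below those of both db/m groups. The share averaged 18.5% ± 0.644 in the libraries labelled db/db-GABP-KD and 18.6% ± 1.67 in those of db/db-veh, and 21.7% ± 0.421 over db/m-GABP-OE libraries and 22.8% ± 0.724 over db/m-veh libraries (SD, n = 3 each). An exact permutation test over the 4 groups (15400 assignments of the libraries) gave p = 0.00318 for mt-Cytb, and 0.0698 after Benjamini-Hochberg adjustment over the 12897 genes tested, each divided by the same sum.

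mt-Co1 ran the other way. It held 34.9%, 34.1% and 34.7% of the sum in the libraries labelled db/db-GABP-KD, and 31.7%, 32.1% and 37.5% in db/db-veh. It held 28.7%, 27.7% and 28.2% in db/m-GABP-OE, and 27.3%, 30.4% and 30.7% in db/m-veh. Here the db/db values lay above the db/m values (exact permutation p = 0.00974, adjusted over all genes 0.103). mt-Nd4 held 7.15% to 8.11% in the libraries labelled db/db-GABP-KD and 6.89% to 8.44% in those of db/db-veh, and 9.13% to 9.95% over db/m-GABP-OE libraries and 7.86% to 9.18% over db/m-veh libraries. Its exact permutation p was 0.0173 (adjusted 0.129), and 0.0562 or 0.0642 when the first or the second db/m-GABP-OE library was left out. The other 7 genes had exact permutation p of 0.091 to 0.996. An unadjusted p under 0.05 was thus found for 3 of 10 genes, whose shares are not independent of each other. Of all genes treated the same way 24% had such a p, so the 3 of 10 are near the background. That background is not a like one. For nuclear genes the division leaves in the ratio of mitochondrial to nuclear RNA, which cancels for the 10 genes. The same holds for the other shares of all genes on this scale, and it enters the p-values adjusted over all genes. With centred log ratios in place of shares the exact permutation p was 0.0999 for mt-Co1 and 0.0837 for mt-Nd4, and mt-Cytb was the 1 gene still under 0.05. The moderated F test of limma over the 4 groups, on log2 shares, called 0 of 10 (adjusted p of 0.141 for mt-Cytb and 0.144 for mt-Co1), beside 7.61% of all genes.

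The separation of the db/db from the db/m libraries was noticed after the values were seen and is given as a description. In mt-Cytb the 6 db/db libraries spanned 16.9% to 20.2% and the 6 db/m libraries 21.4% to 23.6%, with 0.992% of all genes divided by the same sum lower without overlap. In mt-Co1 they spanned 31.7% to 37.5% and 27.3% to 30.7%, with 0.093% of all genes higher without overlap. Both backgrounds carry the ratio of mitochondrial to nuclear RNA. The other 8 genes overlapped between the genotypes. The vehicle libraries are part of both sets, so their directions and lack of overlap for mt-Cytb and mt-Co1 follow from this separation. They are not separate evidence for it. The log2 share difference of the vehicle groups was -0.30 for mt-Cytb (95% interval -0.55 to -0.05, limma adjusted p = 0.54). It was 0.19 for mt-Co1 (95% interval -0.03 to 0.42, limma adjusted p = 0.65). With limma on shares 0 of 10 genes were called in the db/db-veh group relative to db/m-veh, beside 0.062% of all genes. At an unadjusted limma p under 0.05 there was 1, mt-Cytb, beside 8.5% of all genes. In shares without overlap, mt-Co1 was 1 gene of 10 above db/m-veh, beside 0.845% of all genes, and mt-Cytb 1 of 10 below, beside 15%. Of 14 marker sums, that of 5 kidney epithelium markers also separated the 6 db/db from the 6 db/m libraries, and 1 gene carried it. Kap, an androgen-regulated gene of the mouse proximal tubule, was at 118 to 350 FPKM in the libraries labelled db/db-GABP-KD and 348 to 850 in those of db/db-veh, and at 14741 to 30365 over db/m-GABP-OE libraries and 2774 to 14988 over db/m-veh libraries. The summed FPKM of the other 4, Pax2, Pax8, Cdh16 and Ggt1, overlapped between the genotypes, at 162 to 209 in the libraries labelled db/db-GABP-KD and 88.7 to 186 in those of db/db-veh, and at 199.5 to 245 over db/m-GABP-OE libraries and 102 to 212 over db/m-veh libraries. The part of what Kap reflects in the shares was not tested, and genotype cannot be told apart here from anything else that differed between the db/db and db/m mice or their handling.

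The least and the most mitochondrial RNA, as a percent of fragments, were both found in db/db libraries. The library with the least, the first labelled db/db-GABP-KD, had 47.9% of its fragments from the 10 genes and a mt-Cytb share of 17.8%. The library with the most, db/db-veh 2, had 85.9% and 18.6%. In the libraries labelled db/db-GABP-KD 2 and 3 the values were 75.5% and 18.4%, and 74.1% and 19.1%. In db/db-veh 1 and 3 they were 75.4% and 20.2%, and 75.1% and 16.9%. The db/m-GABP-OE libraries had 64.1%, 59.9% and 58.6% of fragments, with mt-Cytb shares of 21.6%, 21.4% and 22.2%. Those of db/m-veh had 67.8%, 77.8% and 69.7%, with shares of 22.3%, 23.6% and 22.6%. Whether the mt-Cytb share goes with the amount of mitochondrial RNA was not tested. The ratio of mt-Cytb to mt-Co1, both in FPKM and so per length, was 0.510, 0.540 and 0.551 in the libraries labelled db/db-GABP-KD and 0.637, 0.578 and 0.450 in db/db-veh. It was 0.752, 0.771 and 0.788 in db/m-GABP-OE and 0.815, 0.777 and 0.736 in db/m-veh. The lowest db/m value was above the highest db/db value, which follows the 2 shares from which the ratio was chosen and is given as a description. mt-Cytb has no 100-base window in an annotated nuclear copy and mt-Co1 has 30.8%, and the part of the copies in this ratio was not tested. The db/m-GABP-OE libraries had a mt-Cytb share below that of db/m-veh without overlap, 1 of 10 genes beside 0.52% of all genes. That background carries the ratio of mitochondrial to nuclear RNA. The difference was -1.12 percentage points (exact permutation p = 0.1, the lowest possible). In the libraries labelled db/db-GABP-KD the shares of 10 of 10 genes overlapped those of db/db-veh, where 0.372% of all genes were lower without overlap. On shares limma called 0 of 10 in both of these comparisons, beside 2.77% of all genes for db/m-GABP-OE and 0% for the libraries labelled db/db-GABP-KD. At an unadjusted limma p under 0.05 there were 0 as well, beside 18.4% and 21.4% of all genes. Complex IV, almost all of it mt-Co1, held 35.3% ± 0.371 in the libraries labelled db/db-GABP-KD and 34.6% ± 3.09 in those of db/db-veh, and 29.2% ± 0.573 over db/m-GABP-OE libraries and 30.4% ± 1.91 over db/m-veh libraries (SD, n = 3 each).

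**Figure D5:**
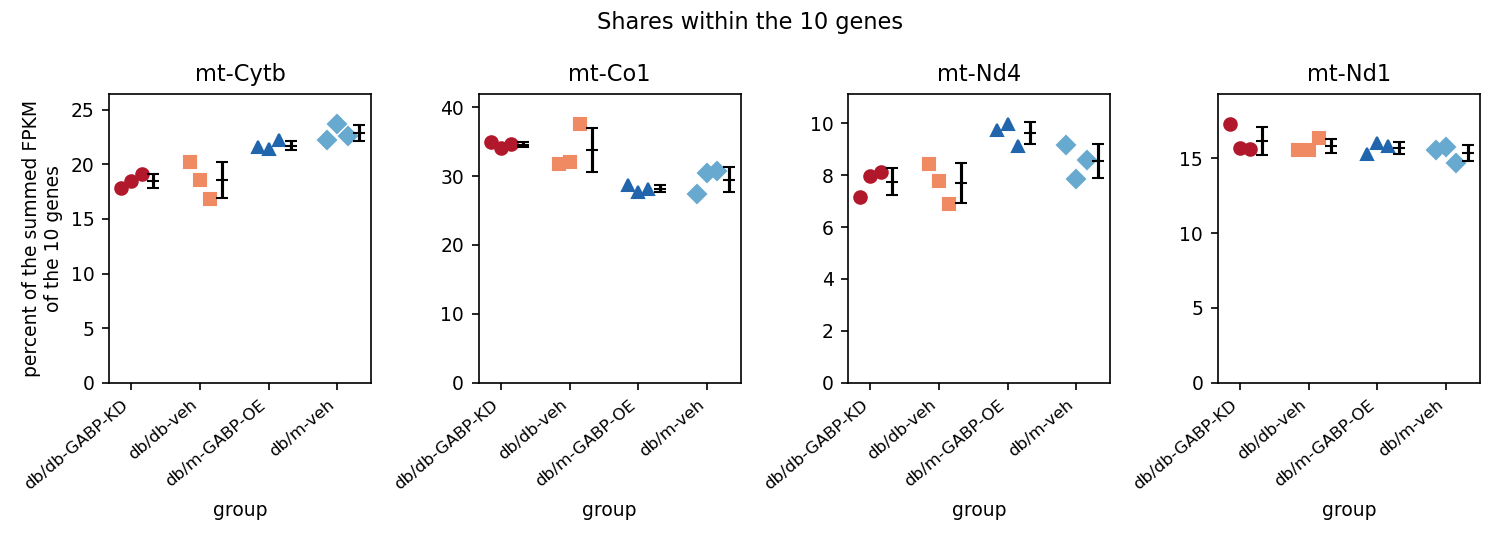
Percent of the summed FPKM of the 10 genes held by mt-Cytb, mt-Co1, mt-Nd4 and mt-Nd1 in each library (points) of the 4 groups, with the group mean and SD (n = 3) beside them; axes start at 0. The 6 db/db libraries lie below the 6 db/m libraries for mt-Cytb (16.9% to 20.2% against 21.4% to 23.6%) and above them for mt-Co1 (31.7% to 37.5% against 27.3% to 30.7%), while mt-Nd1 holds 14.7% to 17.3% throughout.

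The nuclear-encoded partners had median fold changes of the opposite sign to the mitochondrial genes as deposited, and limma called none of them there. In db/db-veh compared with db/m-veh the median log2 fold change was -1.07 for 37 nuclear complex I subunits, -1.09 for 9 of complex III, -1.11 for 12 of complex IV and -0.97 for 15 of ATP synthase, beside -0.24 for all genes and 0.11 for the mitochondrial genes. The count at an unadjusted limma p under 0.05 was 20, 4, 4 and 9 in that order, beside 11.5% of all genes, and voom also called 0. After scaling on nuclear genes these medians were -0.70, -0.71, -0.74 and -0.75 beside 0.01 for all genes, and 2 of the 37 complex I subunits fell, beside 0.116% of all genes. These were Ndufb9, an accessory subunit, by 1.45 (SE 0.26, limma adjusted p = 0.037) and Ndufs5, another accessory subunit, by 2.32 (SE 0.37, limma adjusted p = 0.026), both on the log2 scale. As deposited Ndufs5 had 1.51 to 3.09 FPKM in db/db-veh and 8.53 to 20.1 FPKM in db/m-veh. For db/m-GABP-OE compared with db/m-veh the deposited medians were 0.54, 0.41, 0.70 and 0.46 in the same order, beside 0.38 for all genes. For the libraries labelled db/db-GABP-KD compared with db/db-veh they were 0.94, 0.65, 1.17 and 1.02, beside 0.42. An unadjusted limma p under 0.05 was found for 1, 0, 1 and 0 subunits in db/m-GABP-OE and for 16, 4, 6 and 8 in the libraries labelled db/db-GABP-KD, beside 15.1% and 14.3% of all genes. Scaling on nuclear genes brought the db/m-GABP-OE medians to 0.10, -0.02, 0.26 and 0.05 beside 0.04 for all genes, a change of sign for complex III. It brought those of the libraries labelled db/db-GABP-KD to 0.34, 0.05, 0.61 and 0.45 beside 0.00.

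The nuclear subunits with high levels included Ndufa13, an accessory subunit of complex I, Uqcrq, a small subunit of complex III, Cox6a1, a structural subunit of complex IV, and Atp5a1, of the catalytic head of ATP synthase. Uqcrq had a median of 23.8 FPKM in db/db-veh (11.3 to 52.4) and 87.9 in db/m-veh (58.2 to 99.3), a log2 change of -1.70 (SE 0.55, limma adjusted p = 0.26). Cox6a1 had a median of 49.4 FPKM in db/db-veh (29.6 to 129) and 246 in db/m-veh (130 to 421), a log2 change of -2.04 (SE 0.74, limma adjusted p = 0.30). For Ndufa13 the limma log2 fold change was -1.67 (SE 0.55, adjusted p = 0.26), for Ndufa8 -1.42 (SE 0.49, adjusted p = 0.28), for Uqcr10 -1.51 (SE 0.54, adjusted p = 0.29) and for Cox8a -1.46 (SE 0.60, adjusted p = 0.36). Atp5a1 and Atp5b, the alpha and beta subunits, had -0.17 (SE 0.45) and -0.31 (SE 0.43), with limma adjusted p of 0.93 and 0.84. The summed FPKM of the 10 mitochondrial genes was 60.1, 318 and 259 times that of the 73 nuclear subunits in the libraries labelled db/db-GABP-KD, and 299 to 732 times in db/db-veh. It was 86.1 to 140 times in db/m-GABP-OE and 153 to 240 times in db/m-veh. The db/db-veh ratios lay above those of db/m-veh and the db/m-GABP-OE ratios below them, whereas the libraries labelled db/db-GABP-KD overlapped those of db/db-veh.

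Of 32 genes that copy, transcribe, process or translate mitochondrial DNA, 31 were in the table and 30 passed the filter on low values. Their median log2 fold change was -0.25 for db/db-veh, 0.17 for db/m-GABP-OE and 0.26 for the libraries labelled db/db-GABP-KD, each relative to its vehicle group as above, beside -0.24, 0.38 and 0.42 for all genes. On nuclear scaling these medians were 0.04, -0.18 and -0.22. Neither limma nor voom called any of the 30. The count at an unadjusted limma p under 0.05 as deposited was 5, 0 and 3, beside 11.5%, 15.1% and 14.3% of all genes. Hsd17b10, a subunit of the enzyme that cuts the 5′ ends of mitochondrial transfer RNAs, had a median of 12.5 FPKM in db/db-veh (5.70 to 19.1) and 29.1 in db/m-veh (22.7 to 29.3). Its log2 fold change was -1.23 (SE 0.47, limma adjusted p = 0.32). Fastk, a mitochondrial RNA-binding protein needed for mt-Nd6 messenger RNA, differed by -0.46 (SE 0.43, limma adjusted p = 0.74) in that comparison. For 9 regulators of mitochondrial biogenesis the deposited medians were -0.14, 0.37 and 0.51, and 0.07, 0.05 and 0.18 on nuclear scaling. Neither limma nor voom called any of the 9, with 0, 0 and 2 at an unadjusted limma p under 0.05 as deposited, beside the same shares of all genes. They include Esrra, an orphan nuclear receptor, and Yy1, a zinc finger factor, whose log2 fold changes for db/m-GABP-OE were 0.21 (SE 0.41) and 0.37 (SE 0.43), with limma adjusted p of 0.79 and 0.66.

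Among 8893 nuclear genes, those whose log2 FPKM over the 12 libraries was most like the mean log2 FPKM of the 10 mitochondrial genes were Gatm (Pearson r = 0.67, Spearman rho = 0.60), Ahcyl2 (0.66, 0.62), Adamts4 (0.64, 0.63), Qsox2 (0.62, 0.47) and Zfp983 (0.59, 0.39). Gatm encodes the mitochondrial enzyme of creatine synthesis that kidney tubules express strongly, and it ranged from 17.8 to 48.6 FPKM. The least alike were Msi2 (r = -0.98), Reep3 (-0.97), Zfp787 (-0.97), Ppp1r13l (-0.97) and Trabd (-0.96). These values describe the 12 libraries, which fall into 4 groups. Because FPKM divides by a total to which the mitochondrial genes contribute most, a nuclear gene with a constant share of nuclear RNA has a negative correlation by construction.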

How the data were processed

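Polyadenylated kidney RNA was fragmented, reverse transcribed from random primers and sequenced as read pairs (Illumina), per the labels' protocols. The values are FPKM as the authors deposited them, 1 per gene in each library. The submitters' processing notes list HTSeq as tool and GRCm39 as build. The aligner, annotation, strand setting and treatment of multiply aligned reads are absent from the sources used here. Exon lengths of GENCODE M21 (GRCm38) turned 98.0% to 98.2% of the values under 500 fragments into whole fragments (tolerance 0.05), for 21846 genes with a length. Coordinates and sequences are from M21, whose build differs from the one named. No value column was left unused.

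limma 3.58.1 (R 4.3.3) was fitted to log2(FPKM + 0.5) of 12897 genes with at least 0.3 FPKM in at least 3 libraries, with 4 group means over all 12 libraries and a variance trend. Tests were two-sided, and p-values were adjusted over all genes by Benjamini-Hochberg (called under 0.05). The fit was tested on simulated data. Fold changes on this scale understate changes of low genes. The same fit was made after median of ratios scaling from 5872 nuclear genes and on values divided by the summed FPKM of the 10 genes. Single values were compared by exact permutation of libraries, two-sided. Nuclear copies were sought by aligning each gene to M21 transcripts (identity of at least 90% over at least 100 bases) and by exact matches of windows of 50, 100 and 150 bases. Other steps used Python 3.11.15 (scipy 1.17.1, numpy 2.4.6, pandas 2.3.3) with figures by matplotlib 3.10.9.

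The 10 genes and the gene lists were chosen with earlier results of these data known. Named besides them are mt-Nd3, mt-Nd4l and mt-Atp8, the GABP subunits, up to 3 genes with the smallest p from each list with a called gene in the deposited values and otherwise the 2 with the highest mean FPKM, and the 5 nuclear genes most and the 5 least alike in pattern. Ndufb9 and Ndufs5 were added after their values were seen. A marker gene of the lists is not reported here. Alternatives were pseudocounts of 0.1 and 1, the low-value filter dropped or set to 1 FPKM, scaling by median of ratios, equal FPKM sums, quantile normalization, no variance trend, library weights, voom, the replicate number as a block, fits of the compared groups alone, other forms of the share, and each library left out.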

Additional observations from a re-analysis of the deposited data

How the results depend on the processing

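Over 24 other settings for each comparison, and 23 for the difference of effects, which a fit of 2 groups cannot give, the count of called genes stayed at 0 except under quantile normalization, which called 1 (mt-Nd6) for db/m-GABP-OE and 1 in the difference of effects. Quantile normalization sets values by rank, and the 10 genes are among the highest of the table. Kap, at 14741 to 30365 FPKM in db/m-GABP-OE, lay near or above mt-Nd6 there (12207 to 14994). The part of rank in these calls was not tested. Leaving out single libraries gave 0 in each comparison, and 2 to 4 genes with an exact permutation p under 0.05 for the share, against 1 with centred log ratios. The difference in fragment share ranged from 3.44 to 10.01 points for db/db-veh, from -12.9 to -7.90 for db/m-GABP-OE and from -17.8 to -3.99 for the libraries labelled db/db-GABP-KD.

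None of the log2 fold changes that changed sign was called under either setting, and the cause was not tested. For db/db-veh these were mt-Nd2 (0.35), mt-Nd4 (0.34) and mt-Cytb (0.19) under median of ratios and mt-Co3 (-0.45) under library weights. For db/m-GABP-OE they were mt-Co2 under median of ratios (-0.35) and quantile normalization (-0.25), mt-Nd4 with equal FPKM sums (0.031) and mt-Atp6 under library weights (0.15). For the libraries labelled db/db-GABP-KD they were mt-Nd4 under quantile normalization (0.14), mt-Nd4 (0.059), mt-Cytb (0.0073), mt-Co3 (0.38) and mt-Atp6 (0.056) under library weights, and the mt-Cytb share as a centred log ratio (0.048). Leaving out single libraries gave, for db/db-veh, mt-Nd2 -0.16 to 0.083, mt-Nd4 -0.12 to 0.079, mt-Co2 -0.24 to 0.22, mt-Co3 -0.33 to 0.48 and mt-Atp6 -0.30 to 0.54. It gave mt-Nd5 -0.30 to 0.072, mt-Co2 -0.17 to 0.29 and mt-Co3 -0.69 to 0.042 for db/m-GABP-OE, and mt-Co3 -0.56 to 0.25 for the libraries labelled db/db-GABP-KD. Log2 share differences in the last comparison were -0.068 to 0.078 for mt-Nd4, -0.071 to 0.060 for mt-Cytb and -0.0052 to 0.12 for mt-Co1.

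With the replicate number as a block (replicate block) 0 of the 10 genes were called in each comparison. Deviations of same-numbered libraries correlated at -0.48 to 0.38, so the numbers were not taken to pair libraries. With 3 libraries a group, differences smaller than the intervals given are not detectable, while each gene had 4087 fragments or more in every library.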
